A study of Caenorhabditis elegans with 4 samples.

Results

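Among the cuticle collagen genes of Caenorhabditis elegans, col-41, col-90, col-169 and col-137 were singled out for large differences in transcript level between isp-1;ceh-23 double mutants and isp-1 single mutants. They were selected on their ratios on these same arrays, with col-41, col-90 and col-169 higher and col-137 lower in the double mutant, so their ratios are given as a description and without a test. They are 4 of 175 cuticle collagen genes with a probe, of which 151 could be tested, among 13685 genes tested in all. Of the other 24, 17 had no probe that passed the filter on dim probes and 7, with dpy-2, bli-1 and sqt-1 among them, had a probe that passed but only outlier spots in a replicate. All 4 were in the tested set, and each was found through the sequence name of its probes (T10B10.1 for col-41, C29E4.1 for col-90, T10E10.5 for col-169 and Y51H4A.9 for col-137). By the RefSeq gene table of assembly WBcel235, col-41 and col-169 lie on chromosome X, col-90 on chromosome III and col-137 on chromosome IV.

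Cuticle collagens are short secreted proteins with Gly-X-Y repeats. The hypodermis makes and assembles them into the cuticle, the exoskeleton that a worm sheds and rebuilds at every molt. Their genes are transcribed in waves within each molting cycle, and single members such as col-19 are used at 1 stage of life, so the level of a collagen transcript depends strongly on how far a larva has come through its stage. The proteins are hydroxylated and folded in the endoplasmic reticulum, trimmed by proteases, and crosslinked outside the cell.

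The arrays compared isp-1(qm150) with isp-1(qm150);ceh-23(ms23). Both genotypes carry the qm150 allele of isp-1, the gene for the Rieske subunit of mitochondrial complex III, and the double mutant adds the ms23 allele of ceh-23, which encodes a homeodomain transcription factor. Per the labels, both were mid-L4 worms from synchronized cultures, kept at 20 C on plates with OP50 bacteria and not treated differently, and 100 ng of their RNA was labelled with Cy3 or Cy5. Every one of the 4 arrays held both genotypes, 1 in each dye, from 3 biological replicates, and replicate 1 was hybridized a second time with the dyes exchanged. The 2 hybridizations of replicate 1 are called the flip and the unflipped array below. Cy5 marked the double mutant on the flip array and on the array of replicate 2, and Cy3 marked it on the unflipped array and on that of replicate 3.

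Values below are log2 ratios of the double mutant over isp-1 after background correction and loess normalization within each array. A replicate's value is its array's ratio, or for replicate 1 the mean of both arrays, and SD is over the 3 replicates. All 4 collagens had 1 sign on every array and a mean change of 1.5-fold or more, the rule on sign and size used below, which 1.36% of all genes met as higher and 7.92% as lower. Nothing is read from this, or from the gaps between the levels of the genotypes given below, since the choice used the same ratios. The share of all genes with such a gap was not computed. Before normalization the median log2 ratio of an array was between -0.58, in replicate 2, and 0.62, in replicate 3, and afterwards the median over genes was between -0.07 and 0.02. No spot was saturated, and 62.2% to 78.4% of the spots of a channel were well above background. The number of arrays limits the precision. RNA came from worms as a whole, so fewer hypodermal cells and less RNA per cell cannot be told apart, and a difference in progress through the stage cannot be told apart from the genotype. At -0.09 (SD 0.10), the ratio of the only ceh-23 probe was close to 0, with signal above background on 2 arrays in each genotype, and the isp-1 probes were at 0.15 (SD 0.03) and 0.01 (SD 0.22). The part of the gene removed or altered by ms23 is not given in the sources used here, so the ceh-23 probe does not check the labels.

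The gene with the highest mean ratio of all 13685 was col-41. Its normalized log2 signal in the double mutant was 13.99 on the flip array, 13.70 on the unflipped array, 13.02 in replicate 2 and 13.10 in replicate 3. In isp-1 it was 12.08 on the flip array, 12.36 on the unflipped array, 11.45 in replicate 2 and 11.63 in replicate 3. The double mutant was higher on every array, and its lowest replicate lay 0.80 above the highest isp-1 replicate. The log2 ratios were 1.91 on the flip array, 1.34 on the unflipped array, 1.57 in replicate 2 and 1.47 in replicate 3. Their mean was 1.56 (SD 0.08, n = 3), or 2.94-fold higher in the double mutant. Both arrays of replicate 1 average to 1.63, and the difference of 0.56 between them was larger than the whole range of the replicate values, 0.15.

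Both col-41 probes gave a signal on all 4 arrays. On the first probe the raw signal in the double mutant and in isp-1 was 27803 and 5181 on the flip array, 16481 and 8739 on the unflipped array, 4915 and 1637 in replicate 2, and 6214 and 967.5 in replicate 3. The double mutant was brighter on this probe on all 4 arrays, but its spot in replicate 2 carried the scanner's outlier flag and was left out. On the second probe the raw signals were 20989 and 6862, 15366 and 8169.5, 5877 and 3616, and 7537 and 1478 in the same order. After normalization the first probe gave log2 ratios of 2.31, 1.35 and 1.64 on the flip array, the unflipped array and replicate 3, and the second gave 1.504, 1.34 and 1.31. The probes thus differed most on the flip array, and the replicate 2 value of col-41, 1.57, rests on the second probe alone. With outlier spots kept, the mean ratio of col-41 was 1.71.

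**Figure D1:**
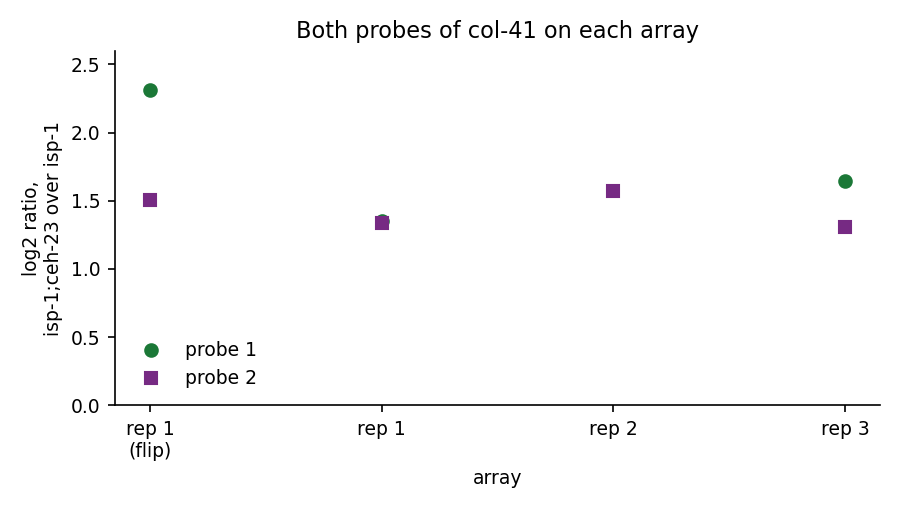
Log2 ratio of the double mutant over isp-1 (vertical axis) of each col-41 probe on the 4 arrays (horizontal axis). All values lie between 1.31 and 2.31, the probes coincide at 1.35 and 1.34 on the unflipped array, and replicate 2 shows the second probe only.

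Second in rank over all genes was col-90, measured by 1 probe. In the double mutant its normalized log2 signal was 14.82 and 15.08 on the flip and the unflipped array, 15.14 in replicate 2 and 14.65 in replicate 3. In isp-1 it was 13.31, 13.46, 13.10 and 13.69 in that order. The double mutant was higher on every array, with its lowest replicate 0.96 above the highest isp-1 replicate. The log2 ratios were 1.51, 1.62, 2.04 and 0.96, with a mean of 1.52 (SD 0.54, n = 3), or 2.87-fold higher. The dye exchange in replicate 1 moved the ratio of col-90 by only 0.11, whereas replicates 2 and 3 differed by 1.08. Leaving out replicate 2 gave a mean of 1.26 and leaving out replicate 3 gave 1.80. The raw signals were 44576 in the double mutant against 13435 in isp-1 on the flip array, 38752.5 against 18324.5 on the unflipped array, 25396 against 10398 in replicate 2 and 20899 against 5126.5 in replicate 3. Raw signals put the wider gap in replicate 3 and normalized signals put it in replicate 2, and before normalization the median log2 ratios of these arrays were 0.62 and -0.58.

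**Figure D2:**
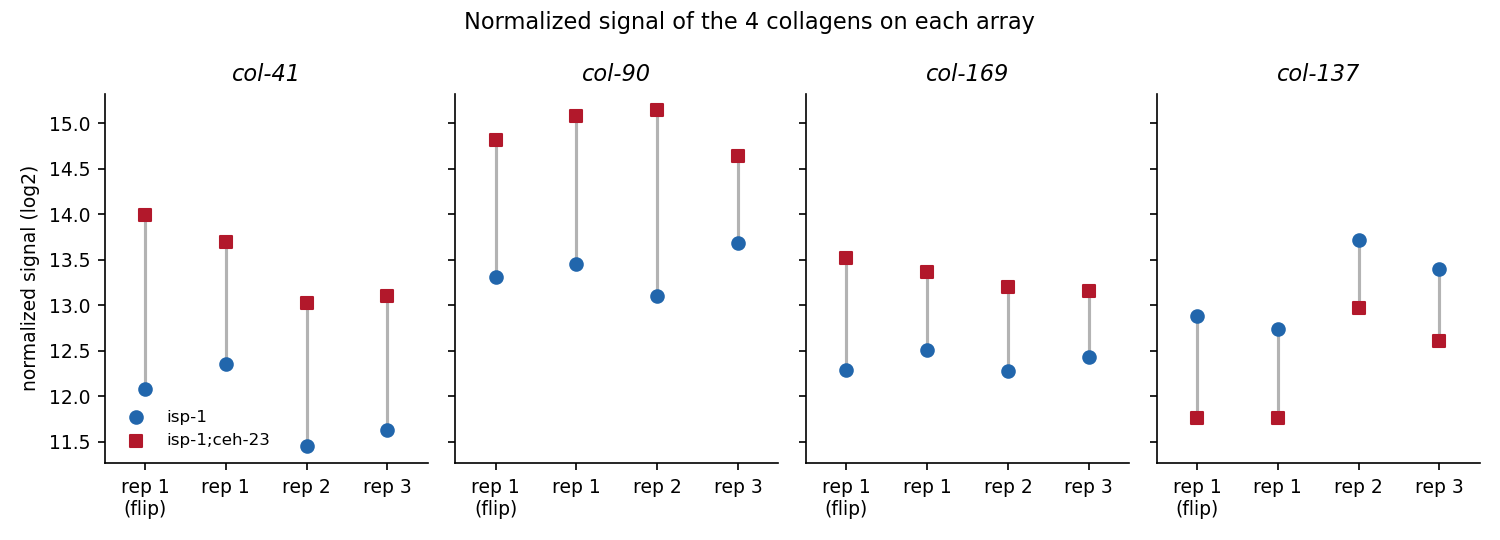
Normalized signal (log2, vertical axis) of each collagen in isp-1 (circles) and isp-1;ceh-23 (squares) on the 4 arrays (horizontal axis), joined by a line for each array. For col-41, col-90 and col-169 all double mutant values lie above all isp-1 values, whereas col-137 is lower in the double mutant on each array although its signal moved between replicates, from 11.76 to 12.97 in the double mutant. Levels are not comparable between panels, which show different probes. The genes were chosen for their ratios, so nothing is read from the separation of the genotypes.

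Smaller ratios of even size were found for col-169, also on 1 probe. Its normalized log2 signal in the double mutant was 13.52 and 13.36 on the flip and the unflipped array, 13.20 in replicate 2 and 13.15 in replicate 3. In isp-1 it was 12.29, 12.51, 12.28 and 12.44. The double mutant was higher on each array and the groups did not overlap, with a gap of 0.72 between the nearest replicates. The log2 ratios were 1.23, 0.86, 0.92 and 0.72, with a mean of 0.89 (SD 0.16, n = 3), or 1.86-fold higher. Among the 151 collagens col-169 ranked 4 from the top on the flip array and in replicate 3, but 12 on the unflipped array and 10 in replicate 2. In replicate 2 its raw signals were nearly equal, 6593.5 in the double mutant and 6217.5 in isp-1, so the ratio of that replicate rests on the normalization of an array whose median log2 ratio was -0.58 beforehand.

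The collagen chosen as lower in the double mutant was col-137, on 1 probe. Its normalized log2 signal in the double mutant was 11.76 on the flip and on the unflipped array, 12.97 in replicate 2 and 12.61 in replicate 3. In isp-1 it was 12.88 on the flip array, 12.74 on the unflipped array, 13.72 in replicate 2 and 13.40 in replicate 3. On every array the double mutant was lower, yet the levels of the genotypes overlapped across replicates, since the highest double mutant replicate lay above the lowest isp-1 replicate. The log2 ratios were -1.13, -0.98, -0.75 and -0.79, with a mean of -0.86 (SD 0.16, n = 3), or 1.82-fold lower. The raw signals were 4855 in the double mutant against 10343 in isp-1 on the flip array, 4055.5 against 10681 on the unflipped array, 5627 against 16417.5 in replicate 2 and 4831.5 against 4025 in replicate 3. Raw signal was thus higher in the double mutant in replicate 3, and the negative ratio there rests on the normalization of an array whose median log2 ratio was 0.62 beforehand. Within the slide that held replicate 1 the ratio was -1.05, and within the slide that held replicates 2 and 3 it was -0.77. By mean ratio, and in contrast to the 3 higher genes, col-137 was not at the end of its family. It ranked 133 of 151 from the top, with 18 collagens at lower mean ratios, and 422 from the lowest among all genes. Its rank from the lowest collagen varied by array. It was 17 on the flip array, 26 on the unflipped array, 30 in replicate 2 and 3 in replicate 3.

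The pairs of ratios show how firmly the 4 genes can be ordered. The ratio of col-41 was above that of col-90 by 0.03 on average, with -0.47 in replicate 2 and 0.51 in replicate 3 (SD 0.49), so their order does not hold between replicates. The ratio of col-41 exceeded that of col-169 by 0.58, 0.65 and 0.76 in replicates 1 to 3 (SD 0.09), and that of col-90 exceeded it by 0.52, 1.13 and 0.24 (SD 0.45). Every replicate thus had col-169 below both. Because both genes of a pair were chosen for their ratios, these differences are given without a test. The median absolute difference between the dye-exchanged arrays was 0.27 over the 151 collagens, and it was 0.56 for col-41, 0.37 for col-169, 0.15 for col-137 and 0.11 for col-90 in size.

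In its place on chromosome X, col-169 lies within a run of collagen genes on clone T10E10. By order of sequence name, the run comprised col-168 at 0.43 (SD 0.20), col-167 at 0.55 (SD 0.18), col-169 at 0.89 (SD 0.16), col-170 at 0.61 (SD 0.29) and col-171 at 0.08 (SD 0.09). All but col-171 had ratios above 0 on all 4 arrays, and col-169 was the highest of the run in each replicate. The other collagens of the run, which were not chosen, had limma adjusted p of 0.0514 for col-167, 0.0565 for col-170, 0.0718 for col-168 and 0.58 for col-171, all above the threshold of 0.05, and col-169 itself is given without a test. Probe sequences were not used here, and cross-hybridization among related collagens was not tested.

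**Figure D3:**
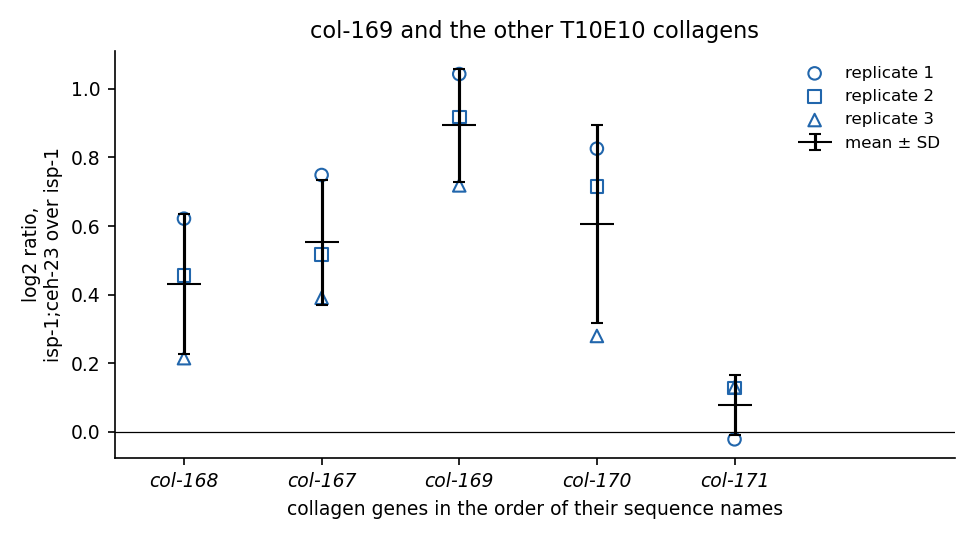
Log2 ratio of the double mutant over isp-1 (vertical axis) of the 5 collagen genes on clone T10E10, in order of sequence name (horizontal axis). Symbols are the 3 replicates and bars the mean and SD. The means are 0.43, 0.55, 0.89, 0.61 and 0.08 from left to right.

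No such run surrounded the other collagens. The nearest tested genes beside col-41 were ucr-2.2, a gene for a core protein of complex III, at 0.38 (SD 0.38, adjusted p = 0.139, limma) and pkhm-2 at 0.03 (SD 0.12). Beside col-90 they were gsto-1, an omega-class glutathione transferase, at 0.36 (SD 0.17, adjusted p = 0.086) and let-754, an adenylate kinase, at -0.003 (SD 0.02). Beside col-137 they were Y51H4A.8 at 0.59 (SD 0.24, adjusted p = 0.0524), which is opposite in sign to col-137, and the SET-domain gene set-26 at -0.12 (SD 0.20). Another collagen of the Y51H4A clone, col-136, had a ratio of -0.32 (SD 0.07, adjusted p = 0.084).

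Likeness of pattern was measured as the root mean square difference of the log2 ratios over the 4 arrays, against the other 13684 genes. For both col-41 and col-90 the nearest gene was ZK757.2, at a distance of 0.365 from col-41 and 0.354 from col-90, with a ratio of 1.34 (SD 0.28). The pair col-41 and col-90 were 0.424 apart, and F45D11.14 and the alpha-tubulin gene tba-8 stood among the nearest 5 of both. The fifth gene was K10D3.4 for col-41, at 0.537, and T01D3.3 for col-90, at 0.514. Around col-169 the distances were smaller, with C47A10.13 at 0.0666, K02E7.6 at 0.132, H39E23.3 at 0.165, nhr-25 at 0.172 and the hedgehog-related gene grd-13 at 0.173. The nuclear hormone receptor gene nhr-25, which is needed for molting, had a ratio of 0.79 (SD 0.15). The genes nearest to col-137 were another collagen, col-178, at 0.0884, then the innexin gene inx-14 at 0.108, nssp-8 at 0.115, oef-1 at 0.132 and ssp-33 at 0.132, with ratios from -0.78 for col-178 to -0.88 for oef-1. The distances around col-41 and col-90 were larger than those around col-169 and col-137, and fewer genes have ratios of that size.

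Set within their family, the 4 genes belong to a group with ratios in both directions. Of the 151 tested cuticle collagens, 69 had a mean ratio above 0 and 82 below, with a median of -0.11 against -0.02 over all genes, and a range from -1.61 to 1.56. At an adjusted p of 0.05 in limma, 0 of the 147 collagens other than the chosen 4 were called higher or lower, where 0.00731% of all genes were called higher and 0.00731% lower. The 1 collagen past the threshold was col-41, from which nothing is read since it was chosen on these ratios. At an unadjusted p of 0.05, 31 of the 147 were higher (21.1%, against 13.5% of all genes) and 49 lower (33.3%, against 22.3%). Adjusted values of 700 genes lay between 0.05 and 0.052, among them 20 of the 147 collagens other than the chosen 4. The number called varied with the processing, and the cause was not tested. Without replicate 1, 2 and 3 in turn, 4, 0 and 38 collagens were called higher and 11, 0 and 53 lower.

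By the rule on sign and size, 15 collagens were higher, or 9.93% against 1.36% of all genes, and 23 were lower, or 15.2% against 7.92%. The 4 chosen genes are among these 38, which follows from their choice. Without them 12 of 147 were higher (8.16%) and 22 lower (14.97%). Without replicate 2 the number higher was 7, without replicate 3 the numbers were 23 and 36, and with median centring the number lower was 14. Just behind col-169 (0.89), the next highest collagens were col-166 at 0.84 (SD 0.54), col-128 at 0.82 (SD 0.36) and the furrow collagen dpy-9 at 0.73 (SD 0.42). In replicate 2 these were at 1.28, 1.23 and 1.21, all above col-169 at 0.92. In replicate 3 they were at 0.24, 0.58 and 0.40, below col-169 at 0.72. The lowest were col-8 at -1.61 (SD 1.06), col-19 at -1.56 (SD 0.88) and col-184 at -1.49 (SD 0.65), all lower than col-137 in mean but more variable, and in replicate 3 col-8 and col-19, at -0.51 and -0.61, were nearer 0 than col-137, at -0.79. In replicates 1 and 2 both were farther from 0, with col-8 at -2.63 and -1.69, col-19 at -2.33 and -1.75, and col-137 at -1.05 and -0.75.

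**Figure D4:**
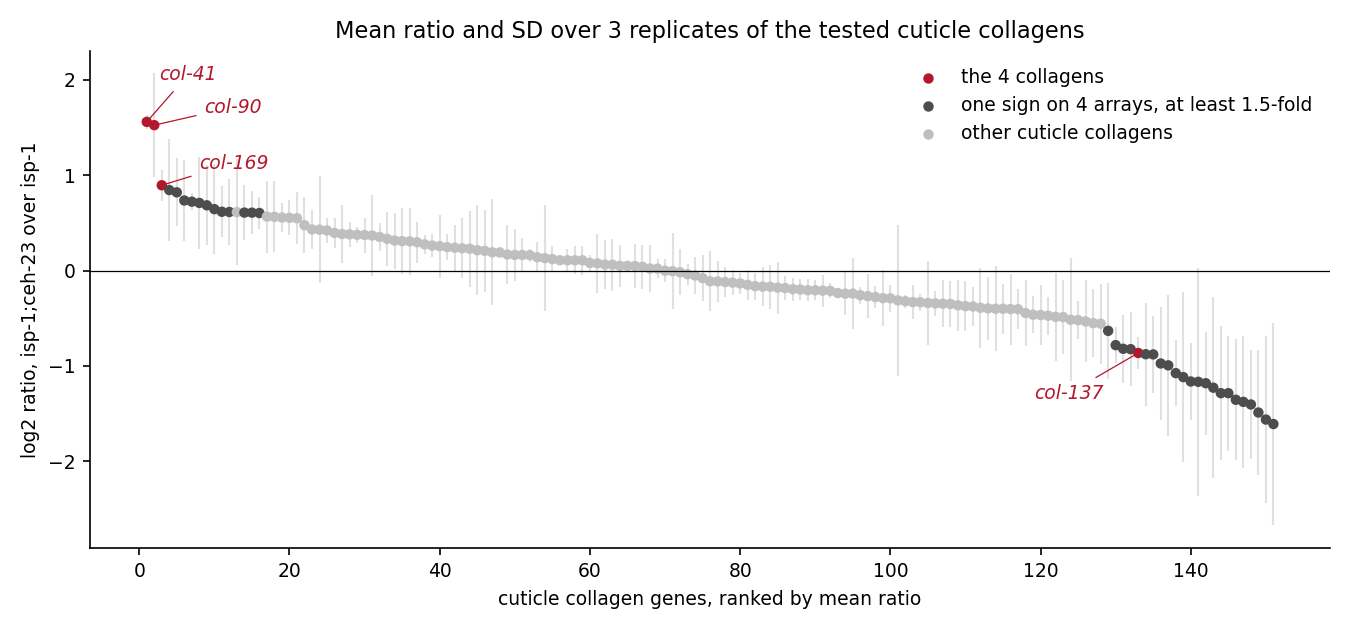
Mean log2 ratio (vertical axis) with SD over 3 replicates of the 151 tested cuticle collagens, ranked from highest to lowest (horizontal axis). The 4 collagens are labelled, and dark points mark the others with the same sign on 4 arrays and at least 1.5-fold. At the top col-41 and col-90 stand apart at 1.56 and 1.52 from col-169 at 0.89, whereas col-137, at -0.86, sits inside the lower tail.

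Lists of collagens with known roles had medians on both sides of 0. For comparison with the counts below, 35.8% of all genes passed an unadjusted p of 0.05 in limma in either direction. Of 5 tested furrow collagens, which form the annular furrows of the cuticle, 4 had ratios above 0, among them dpy-9 at 0.73, dpy-10 at 0.61 (SD 0.35) and dpy-8 at 0.56 (SD 0.15), while dpy-3 was at -0.46 (SD 0.19). Their median ratio was 0.61, and 0 passed limma's adjusted threshold while all 5 passed an unadjusted p of 0.05. Summed signal over the furrow collagens differed by -0.32 on the log2 scale, opposite in sign to their median, and brighter probes weigh more in a sum. Of 7 collagens of late L4 and adult cuticle, all had ratios below 0, with a median of -0.56, among them col-7 at -1.16 (SD 0.40), col-62 at -0.82 (SD 0.39) and col-49 at -0.41 (SD 0.21). None of the 7 passed the adjusted threshold in limma and 5 passed an unadjusted p of 0.05. A list of 11 collagens with mutant phenotypes, outside the furrow list, had a median of 0.16. It shares bli-2 with the late list. Among the 11 were rol-6 at 0.37 (SD 0.08), dpy-14 at 0.47 (SD 0.29), dpy-17 at 0.43 (SD 0.56) and bli-6 at -0.20 (SD 0.11). A list of 4 basement membrane or other matrix collagens had a median of 0.19, with cle-1 at -0.35 (SD 0.12) and mec-5 at 0.33 (SD 0.27). In limma 0 of either list passed the adjusted threshold, and 2 of the 11 and 2 of the 4 passed an unadjusted p of 0.05, where 35.8% of all genes did.

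Genes that fold, crosslink and process collagens had ratios on both sides of 0. The 13 tested had a median ratio of 0.08, and none was of one sign on all arrays and 1.5-fold different. The prolyl hydroxylase genes phy-2 and dpy-18 were at 0.45 (SD 0.17) and 0.34 (SD 0.08), and another, phy-3, at -0.49 (SD 0.38). The procollagen protease gene dpy-31 was at 0.31 (SD 0.04). Of the 13, 0 passed limma's adjusted threshold and 5 an unadjusted p of 0.05, near the 35.8% of all genes. Regulators of molting, timing and epidermis had a median of 0.14 over 15 genes, with 10 above 0 and 5 below. The 5 were elt-1 at -0.24 (SD 0.24), lin-28 at -0.22 (SD 0.13), lin-41 at -0.16 (SD 0.11), lin-42 at -0.06 (SD 0.24) and nhr-23 at -0.01 (SD 0.06). By the rule on sign and size 4 of the 15 were higher, against 1.36% of all genes. These were nhr-25 at 0.79, the Hunchback-like timing gene hbl-1 at 0.73 (SD 0.17) and the timing gene lin-46 at 0.91 (SD 0.56). The fourth was dre-1, an F-box gene of the same timing pathway, at 0.68 (SD 0.38). In limma 0 of these 15 passed the adjusted threshold and 5 an unadjusted p of 0.05, again near the 35.8% of all genes.

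Markers of the tissue that makes collagens, and of the adult and the germline, also had ratios away from 0. Of 10 tested hypodermis markers 9 had ratios above 0, with a median of 0.43, led by wrt-10 at 0.90 (SD 0.42), noah-1 at 0.82 (SD 0.38), mlt-11 at 0.81 (SD 0.50) and noah-2 at 0.74 (SD 0.57), while lin-26, a defining regulator of that tissue, was at -0.13 (SD 0.21). Also nearer 0 were ajm-1 at 0.17 (SD 0.08), elt-3 at 0.20 (SD 0.23) and mlt-10 at 0.09 (SD 0.13), so the markers did not move as one. The summed log2 signal of all 10 was 15.46 to 16.01 in the double mutant and 14.89 to 15.15 in isp-1. All 6 vitellogenins, yolk genes of the adult intestine, were lower, with a median of -1.87 and a summed signal of 14.69 to 16.92 against 17.41 to 18.31. In replicate 3 their median was -0.90, against -2.72 and -1.997 in replicates 1 and 2. All 7 germline and all 5 sperm markers also had ratios below 0, with medians of -0.69 and -0.80 and summed signals of 15.04 to 15.29 against 15.77 to 16.34 and of 13.15 to 14.01 against 14.36 to 14.71. Of the vitellogenin, germline, sperm and hypodermis markers, 6 of 6, 4 of 7, 4 of 5 and 4 of 10 met the rule on sign and size in the direction of their median. Of all genes, 7.92% met it as lower and 1.36% as higher. None of these markers passed limma's adjusted threshold, and 6 of 6, 7 of 7, 4 of 5 and 6 of 10 passed an unadjusted p of 0.05, where 35.8% of all genes did. Their part in the collagen ratios was not tested.

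Markers of other tissues had medians above 0. Pharynx markers had a median of 0.73 over 5 genes, with 1.29 in replicate 1 and 0.40 and 0.33 in replicates 2 and 3, and a summed signal of 12.30 to 13.79 in the double mutant against 11.005 to 13.25. Of these 5, 3 met the rule on sign and size as higher, against 1.36% of all genes. All 5 passed an unadjusted p of 0.05, where 35.8% of all genes did, while 0 passed limma's adjusted threshold. Medians were 0.41 over 6 neuronal, 0.24 over 6 body wall muscle and 0.12 over 6 intestine markers, of which 5, 2 and 1 passed an unadjusted p of 0.05 and 0 met the rule on sign and size or passed limma's adjusted threshold. The median was nearer 0 in replicate 3 than in replicate 2 in every list but intestine markers and the collagens with mutant phenotypes. Over all genes it was also nearer 0, at 0.02 against -0.06, so this is not particular to any list. The ratios of col-41, col-90 and col-169 were likewise nearer 0 in replicate 3. For col-137 replicate 3, at -0.79, was farther from 0 than replicate 2, at -0.75.

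**Figure D5:**
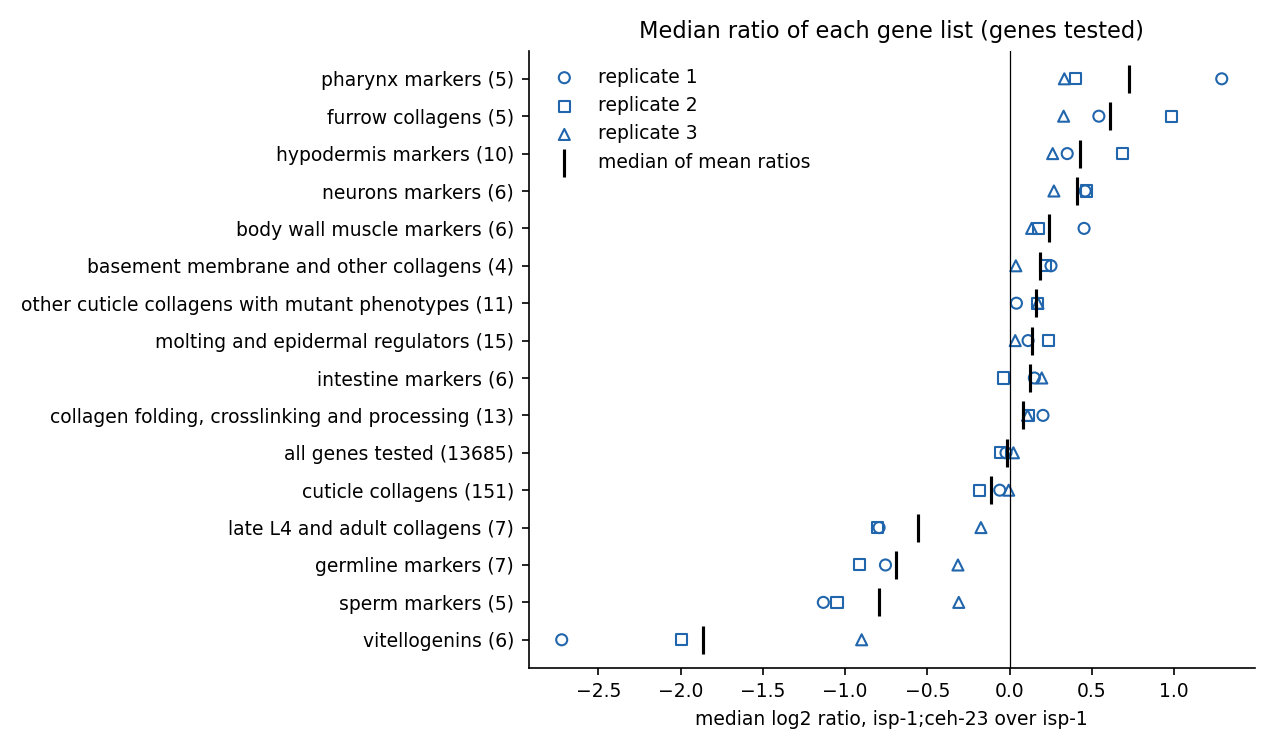
Median log2 ratio of the double mutant over isp-1 (horizontal axis) of each gene list (vertical axis, genes tested in brackets). Bars are medians of the mean ratios and symbols the medians in each replicate. Vitellogenins (-1.87), sperm (-0.80), germline (-0.69) and late collagens (-0.56) lie lowest, pharynx (0.73), furrow collagens (0.61) and hypodermis (0.43) highest, and all genes at -0.02.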

How the data were processed

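Per the file headers, the authors quantified each array with Agilent Feature Extraction 10.5.1.1 (protocol GE2_105_Dec08, array design on build ce4). The deposited files give median spot and local background intensity per dye, processed intensity, log10 ratios of Cy5 over Cy3, and flags for spots above background, saturated spots and outliers. A deposited series table gives log10 ratios, used as an alternative.

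The fit used limma 3.58.1 in R 4.3.3. Normexp with an offset of 50 served as background correction, and loess within each array, at weight 0 for control spots, as normalization. Spots flagged as outliers were dropped, and the labelled dyes set the direction of each ratio. Levels were scaled between arrays on average intensity (Aquantile) and can carry dye bias, since dyes were exchanged in replicate 1 only. A probe was used when 1 genotype or both had it well above background in each of the 3 replicates (on 1 array or both for replicate 1), which left 26248 of 43603. A gene's value is the mean over its probes. Spots were named through the RefSeq table of WBcel235, 35017 of 43803 by sequence name and 356 by accession, with 8430 unnamed. Positions served only to find neighbours.

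Arrays of replicate 1 were averaged, and lmFit and eBayes compared the 3 values per gene with 0 (two-sided, Benjamini-Hochberg over 13685 genes, threshold 0.05), after a check of the script on simulated data. Each array holds both genotypes, so a ratio pairs them within a replicate by hybridization. The labels call the replicates biological without saying how cultures were kept apart.

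Members and lists were chosen with earlier results of these data known. Named genes were the 4 collagens, the 5 genes nearest in pattern to each, the nearest tested gene on either side, the 3 highest and 3 lowest other collagens, up to 4 genes per list by smallest unadjusted p, ceh-23 and isp-1. Collagens of clones T10E10 and Y51H4A were added after their values were seen. So were the hypodermis markers lin-26, ajm-1, elt-3 and mlt-10, and the regulators elt-1, lin-28, lin-41, lin-42 and nhr-23. A planned choice of collagens by protein identity was not applied, as protein sequences were not used here.

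Of the listed gene names 11 had no tested value (dpy-2, bli-1, ram-4, sqt-1, tsp-15, col-99, nhr-85, grh-1, bus-8, ceh-22 and spe-38). No probe carried the name ram-4 or bus-8, and other names of these genes were not searched. Alternatives covered the ratio source, background correction, normalization, dim-probe filter, outlier spots, probe choice, dye, replicate 1 arrays, pairing, slide, moderation and each replicate left out.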

Additional observations from a re-analysis of the deposited data

How the results depend on the processing

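The ratios of col-41, col-90, col-169 and col-137 kept their direction under every alternative that gave a value, with ranges of 1.43 to 1.71, 1.26 to 1.80, 0.82 to 1.04 and -1.05 to -0.77. Nothing is read from the kept direction, since the genes were chosen for these ratios on these arrays. Several alternatives, such as separate channels, dye as a covariate and the moderation, also cannot change a ratio. The ratio of col-41 was 1.71 with outlier spots kept, 1.65 and 1.46 with the dye-flip or the first array alone for replicate 1, and 1.43 with background flags read from non-outlier spots only, and that of col-137 was -1.05 within the slide of replicate 1. With the brightest probe per gene col-41 had no value, since that probe's spot in replicate 2 was an outlier. The number of collagens called by limma, 1 higher and 0 lower, depended on the setting, and the cause was not tested. It was 12 and 17 from the scanner's log ratio and from the series table, 13 and 18 with an offset of 0, 8 and 15 with a strict filter, 11 and 16 with the brightest probe, 5 and 17 with the dye-flip array alone, 9 and 18 with the first array alone, 20 and 25 with slide as a block, and 34 and 19 with variance trend and robust moderation. It was 0 and 0 with median centring, with no filter, with outlier spots kept and, as the unpaired fit, with separate channels and no replicate block. Leaving out 1 replicate gave 0 to 38 higher and 0 to 53 lower. Of all genes, 2 were called in the main setting, 1734 from the scanner's log ratio, 1736 from the series table and 1440 with an offset of 0. The strict filter called 653, the brightest probe 968, the dye-flip array alone 665 and the first array alone 793. Slide as a block called 1540, and variance trend with robust moderation 1927. Median centring called 0, and no filter, kept outlier spots and separate channels 1 each. Leaving out 1 replicate called 1 to 5975.

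Collagens of one sign and at least 1.5-fold, 15 higher and 23 lower, numbered 7 to 23 and 21 to 36 with 1 replicate left out, and 14 were lower with median centring. Of 345 list medians under the alternatives, 328 differed by less than 1 SD over the replicates, 17 moved further and 0 turned sign. Dye as a covariate, separate channels and the moderation cannot change a ratio or a list median. Aquantile scaling and replicate 1 averaged per probe also returned every main median exactly. The slide without replicate 1 repeated the medians found with replicate 1 left out. The 345 thus include medians that equalled the main ones or were counted again, so no stability is read from the 328.

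The following were chosen after seeing the data. The background flag was first read from non-outlier spots only, which called 8 collagens higher and 15 lower, and 645 of all genes. After those calls were seen it was read from all spots, as the filter is worded, and the first reading became an alternative. Averaging replicate 1 per probe left the counts at 1 and 0, with 2 of all genes called. Dye as a covariate over the 3 replicate values called 32 and 48, and 4480 of all genes. The planned dye covariate with a random replicate block could not be fitted, as its correlation could not be estimated. Both arrays of replicate 1 share 1 slide and replicates 2 and 3 another, so slide and replicate are partly confounded.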
